A study of Rattus norvegicus with 10 samples.

Results

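Among the 761 rat microRNAs (miRNAs) on the chip, 9 are described here. Of these, 6 had been picked for a low unadjusted p between the groups, of which 3 were higher in the DEX group (rno-miR-137-5p, rno-miR-324-5p, rno-miR-331-3p) and 3 were lower (rno-miR-1298, rno-miR-1843a-5p, rno-miR-2985). The other 3 are the opposite arms, rno-miR-137-3p along with the 3p arms of miR-324 and miR-1843a, listed only because they are cut from the same hairpins. Because the group difference chose the first 6, their differences are given as a description without a test, and only the opposite arms carry one. The question was whether the arms of a hairpin moved together after dexmedetomidine.

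Dexmedetomidine (DEX) is a sedative and an agonist of alpha2 adrenoceptors. It was given by infusion over 30 min to 5 male Wistar rats weighing 250 to 350 g, and 5 Control rats of the same sex, strain and weight range received saline. Neither ages nor any genetic alteration were given, and by the study's methods the infusion was followed by a short saline washout with no ischemia. RNA of the left ventricle of each heart was labelled with Cy5 and hybridized to 1 single-colour array, so n is 5 animals per group. By the array names, slide 1 carried Control arrays 1 to 4, slide 2 carried the last Control array together with DEX arrays 1 to 3, and slide 3 carried the remaining pair of DEX arrays, so that slide and group were largely entangled and only slide 2 held both.

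A miRNA is transcribed as part of a hairpin, and the enzymes Drosha and Dicer cut the hairpin into a duplex of a 5p arm and a 3p arm. One arm is usually kept in an Argonaute protein while the other is degraded, so the arms come from a common transcript but can accumulate to unlike levels. The seed near the 5′ end of the kept arm pairs with messenger RNAs and sets which of them are repressed.

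The mature sequences of the 9 miRNAs are shown because they identify which strand of each hairpin was measured and show which miRNAs could share targets. They are RefSeq sequences of the rat build GRCr8, written 5′ to 3′, with the seed (bases 2 to 8) in capitals.
rno-miR-137-5p: aCGGGUAUucuuggguggauaa
rno-miR-137-3p: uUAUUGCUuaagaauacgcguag
rno-miR-324-5p: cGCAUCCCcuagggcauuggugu
rno-miR-324-3p: cCACUGCCccaggugcugcugg
rno-miR-331-3p: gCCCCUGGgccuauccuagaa
rno-miR-1298: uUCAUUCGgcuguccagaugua
rno-miR-1843a-5p: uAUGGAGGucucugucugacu
rno-miR-1843a-3p: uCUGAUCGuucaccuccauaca
rno-miR-2985: uGUUAUAGuaucccaccuaccc
The 9 seeds all differed, so the miRNAs that were higher in DEX did not form a seed family, nor did those that were lower. Of the 761 miRNAs on the chip, 685 had a RefSeq sequence of the same name, and among these the only miRNA with the seed of a listed one was rno-miR-1843b-3p, which has the seed of rno-miR-1843a-3p. The median GC content was 45.5% over the listed sequences and 47.8% over the chip.

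The hairpins lie at separate places in the genome. The arms of miR-137 are at chr2:209165731-209165752 (5p) and chr2:209165767-209165789 (3p) on the plus strand, within the span of the long noncoding RNA gene LOC120100931. The arms of miR-324 are at chr10:55233378-55233400 and chr10:55233413-55233434 on the plus strand, within the span of Acadvl, which encodes a mitochondrial enzyme of very-long-chain fatty acid oxidation. rno-miR-331-3p is at chr7:30414401-30414421 on the minus strand, within the span of Vezt, a gene for a protein of cell junctions. rno-miR-1298 is at chrX:115556987-115557008 on the plus strand, within the span of the serotonin receptor gene Htr2c, and rno-miR-2985 is at chr2:168254526-168254547 on the minus strand, within the span of Gria2, a glutamate receptor subunit gene. The arms of miR-1843a are at chr6:104955400-104955420 (5p) and chr6:104955361-104955382 (3p) on the minus strand, within the span of Dcaf5, a gene for a subunit of ubiquitin ligases. RefSeq lists this hairpin under the symbol Scarna3, the name of a small Cajal body RNA. The table used gives gene spans without exons or strand, so exonic and intronic positions were not told apart. Whether a hairpin lies on the same strand as the gene around it was not given either. Among the 685 chip miRNAs with a RefSeq sequence of the same name, none of another hairpin lay within 10 kb of these hairpins.

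Signals are given on a linear scale after subtraction of the mean of the blank spots and scaling of each array to a median of 25 over its detected miRNAs, and a miRNA was detected where its spot exceeded the blank mean by over 2 SD of the blanks. Signals of the 5 arrays of a group are listed in the order of their replicate numbers. An undetected miRNA was set to the lowest detected signal of that array, the floor, which lay between 3.64 and 5.09. Of the 9 miRNAs, 6 were detected on all 10 arrays, and 8 were detected on at least 5 arrays and so were among the 503 miRNAs tested. DEX 1 was the dimmest array, with a median signal over the blanks of 17.3 intensity units before scaling, while the highest was 53.5. Heart muscle miRNAs were bright throughout: all 6 of the list (miR-1, miR-133a, miR-133b, miR-208a, miR-208b and miR-499) were detected on every array, with summed signals of 32202 to 46018 in Control and 31097 to 45001 in DEX. Across bulk tissue, fewer cells of a type and less of a miRNA per cell cannot be told apart.

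No miRNA of the 503 reached an adjusted p under 0.05 in limma (0%, smallest adjusted p 0.115), none of the listed miRNAs included, and the methods' t-test also gave 0 after Benjamini-Hochberg adjustment. At an unadjusted p under 0.05, 7 miRNAs were higher in DEX (1.39%), 3 of them listed, and 8 were lower (1.59%), 3 of them listed. The 6 miRNAs had been picked for a low p of this same contrast, so nothing is read from the counts. Their unadjusted limma p ran from 0.000353 to 0.0128. The test and threshold of the pick were not given, and listed miRNAs at a limma p under 0.05 were taken as the picked ones. Groups did not overlap for 1 miRNA that was higher in DEX (0.199%), which was rno-miR-137-5p, and for 2 that were lower (0.398%), neither of them listed. The median log2 difference over all 503 was 0.044.

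**Figure D1:**
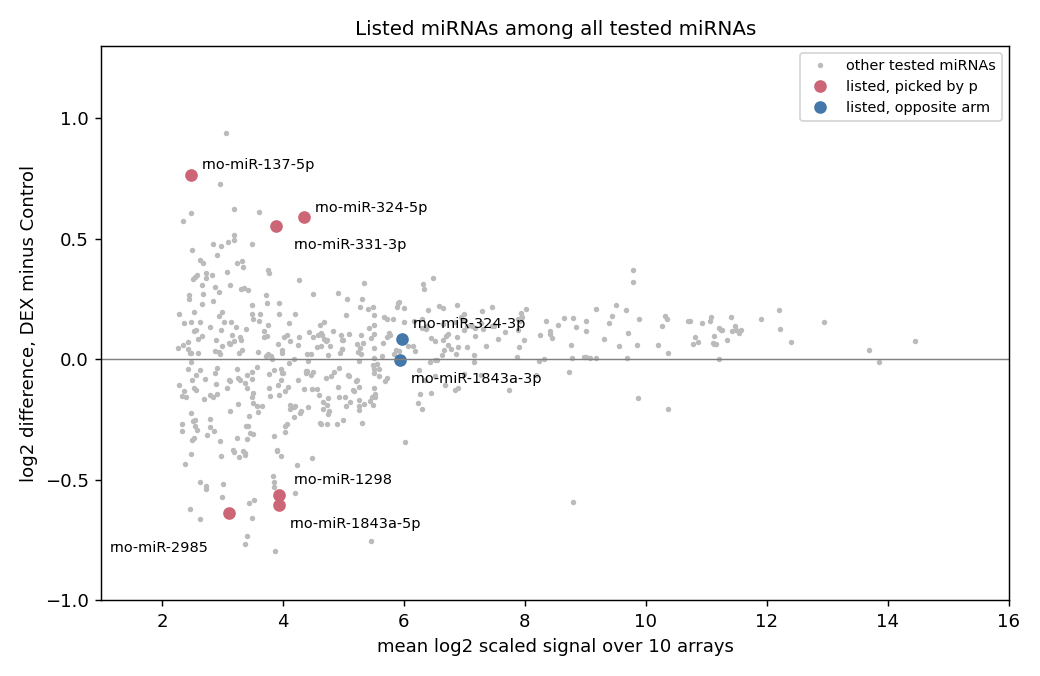
Mean log2 scaled signal over the 10 arrays (horizontal axis) against the log2 difference, DEX minus Control (vertical axis), for the 503 tested miRNAs. Red points are the 6 listed miRNAs picked by p, at log2 differences from -0.64 to 0.77, and blue points the 2 tested opposite arms, which lie near 0 and farther to the right.

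The description of the listed miRNAs as dim held only in part. When the tested miRNAs were ordered by mean signal and divided into 3 parts, rno-miR-137-5p and rno-miR-2985 lay in the dimmest part, the other 4 picked miRNAs in the middle part, and the 3p arms of miR-324 and miR-1843a in the brightest part. The median SD between replicates fell from 0.48 in the dimmest part to 0.29 in the middle and 0.22 in the brightest, on the log2 scale. Signals of different probes depend on the probe as well as on abundance, so this order is one of brightness only.

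miR-137 is known as a miRNA of neurons, where its 3p arm is the one usually studied. The signal of rno-miR-137-5p was 4.43, 4.62, 4.18, 3.64 and 4.54 in Control against 5.81, 8.20, 6.34, 9.50 and 6.98 in DEX. Every DEX array was above every Control array, although Control 3 and Control 4 were undetected and stood at the floor. The means were 4.28 ± 0.397 in Control and 7.37 ± 1.49 in DEX (SD, n = 5), a log2 difference of 0.77 ± 0.16 (SE) whose size depends on the floor given to the 2 undetected Control arrays, since it was 1.02 with a floor of 1 scaled unit. All of these signals were close to the blanks, at 1.10 to 2.17 blank SD in Control and 2.35 to 4.40 in DEX, so the limit of detection at 2 SD ran almost between the groups. On slide 2 alone, where Control 5 was set against DEX 1 to DEX 3, the log2 difference was 0.56, while the median over all tested miRNAs there was -0.19. With the blanks of each spot's own block of the array in place of all blanks, the difference was 0.47.

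The opposite arm rno-miR-137-3p was undetected on 9 of the 10 arrays, all 5 DEX arrays among them. On these 9 it stood between -2.10 and 1.20 blank SD. It was detected on Control 5 alone, with a signal of 18.3, which is 8.59 blank SD above the blanks of that array. The 5p arm was detected on all 5 DEX arrays and on 3 Control arrays, among them Control 5 at 2.13 blank SD. From 1 detected array no direction of the 3p arm can be read. The spot on Control 5 carried no bad-spot mark and had an intensity of 162, against a blank mean of 136, and its 5 neighbouring miRNA spots lay between -2.60 and 7.01 blank SD, the highest of them being rno-miR-138-5p. With 1 detected array, rno-miR-137-3p did not pass the filter and was not tested, and no fold is given. The neuronal list gave little signal in these hearts: rno-miR-124-3p and rno-miR-219a-5p were each detected on 1 array and rno-miR-9a-3p on 2, while rno-miR-9a-5p and rno-miR-128-3p were detected on all 10. The summed signal of the 5 was 36.6 to 57.3 in Control and 35.4 to 62.9 in DEX, and neither of the 2 tested members was called by limma.

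**Figure D2:**
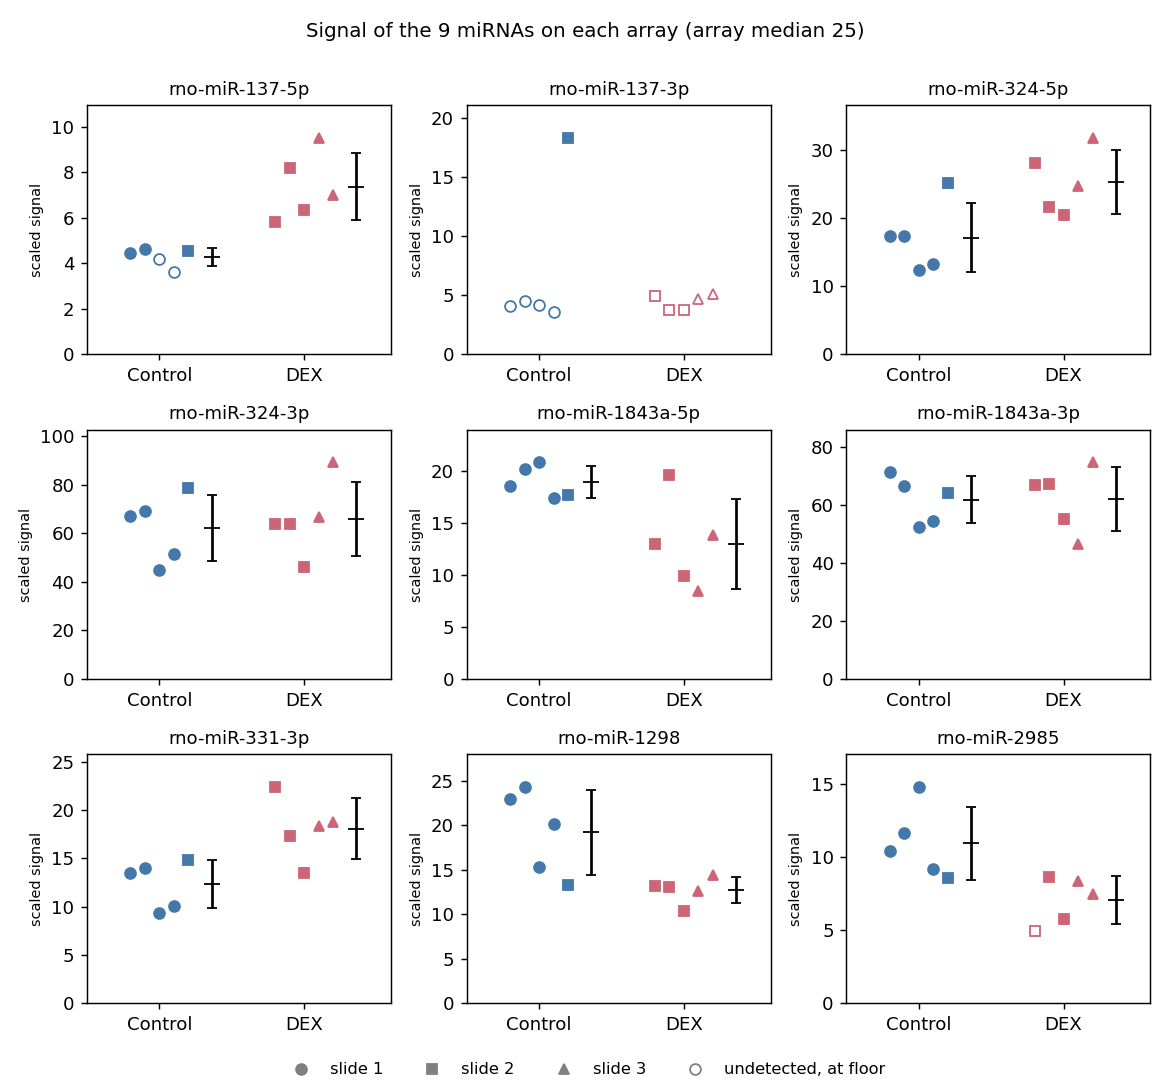
Scaled signal (vertical axes, linear, array median 25) of each of the 9 miRNAs on the 10 arrays, with circles, squares and triangles for slides 1, 2 and 3, and open symbols for undetected values set at the floor; black bars are group means ± SD, omitted for rno-miR-137-3p. The groups are apart for rno-miR-137-5p, whereas the blue square (Control 5) lies among the DEX arrays for rno-miR-324-5p, rno-miR-331-3p, rno-miR-1298 and rno-miR-2985.

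miR-324-5p is known for repressing components of the Hedgehog pathway in the cerebellum. Its signal was 17.5, 17.4, 12.4, 13.4 and 25.2 in Control against 28.2, 21.7, 20.5, 24.7 and 31.8 in DEX. The groups overlapped through Control 5 alone: the 4 Control arrays of slide 1 were below every DEX array, and Control 5 was above 3 of the 5 DEX arrays. The means were 17.2 ± 5.04 and 25.4 ± 4.67 (SD, n = 5), a log2 difference of 0.59 ± 0.20 (SE). Within slide 2 the log2 difference was -0.12, against a median over all tested miRNAs of -0.19, and without Control 5 it was 0.74. Slide and treatment cannot be told apart for the arrays outside slide 2.

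The 3p arm of the same hairpin did not pass the test. rno-miR-324-3p gave signals of 66.9, 69.0, 44.8, 51.3 and 78.5 in Control against 63.6, 63.7, 46.2, 66.6 and 89.1 in DEX. The groups overlapped over most of their range, and the Control and DEX means were 62.1 ± 13.8 and 65.8 ± 15.3 (SD, n = 5). Its log2 difference was 0.083 ± 0.20 (SE; 95% confidence interval -0.35 to 0.52; adjusted p = 0.930 in limma). Within slide 2 it was -0.46, against a median over all tested miRNAs of -0.19.

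Within each array, the log2 signal of the 5p arm of miR-324 minus that of the 3p arm was -1.87 ± 0.138 in Control and -1.36 ± 0.179 in DEX (SD, n = 5). It lay between -1.99 and -1.64 in Control and between -1.56 and -1.17 in DEX, a change of 0.51. The 5p arm was picked by its difference, so this change restates the choice of the miRNA and has no test. Over the 134 hairpins with both arms tested, the gap between the differences of the arms had a median of 0.14 and an upper quartile of 0.31, and 88 of the 134 (65.7%) had arms that differed in the same direction.

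miR-331-3p is known for repressing the growth factor receptor gene ERBB2 in cancer cells. Its signal was 13.5, 14.1, 9.39, 10.1 and 14.8 in Control against 22.4, 17.3, 13.5, 18.4 and 18.8 in DEX. DEX 3 fell within the Control range and the other 4 DEX arrays were above it. The means were 12.4 ± 2.47 and 18.1 ± 3.18 (SD, n = 5), a log2 difference of 0.55 ± 0.18 (SE). The difference was 0.23 within slide 2, against a median over all tested miRNAs of -0.19. It was -0.065 with normexp background correction at an offset of 50 intensity units. Its opposite arm rno-miR-331-5p, which is not among the 9, is at chr7:30414457-30414475 on the minus strand. The 5p arm gave 18.0, 7.82, 9.57, 12.5 and 20.8 in Control against 15.0, 16.4, 16.2, 13.4 and 10.7 in DEX. All 5 DEX signals fell inside the Control range, and the log2 difference was 0.14 ± 0.26 (SE; 95% confidence interval -0.41 to 0.70; adjusted p = 0.914 in limma).

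rno-miR-1298 was lower in the DEX group. Its signal was 23.0, 24.3, 15.3, 20.2 and 13.3 in Control against 13.1, 13.1, 10.3, 12.7 and 14.4 in DEX. Control 5 was again the array that overlapped, lying between DEX 1 and DEX 5, while the 4 Control arrays of slide 1 were above every DEX array. The means were 19.2 ± 4.79 and 12.7 ± 1.48 (SD, n = 5), a log2 difference of -0.56 ± 0.19 (SE). Within slide 2 the log2 difference was -0.13, above the median of -0.19 over all tested miRNAs there, and without Control 5 it was -0.69. No opposite arm of this hairpin was on the chip.

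rno-miR-2985 was also lower, with signals of 10.4, 11.7, 14.8, 9.17 and 8.58 in Control against 4.98, 8.66, 5.74, 8.39 and 7.49 in DEX. DEX 1, the dimmest array, was undetected and stood at its floor, and DEX 2 was above Control 5 by a small margin. The 4 Control arrays of slide 1 were above every DEX array, as for rno-miR-1298. The means were 10.9 ± 2.46 and 7.05 ± 1.63 (SD, n = 5), a log2 difference of -0.64 ± 0.20 (SE). Within slide 2 the log2 difference was -0.45, against a median over all tested miRNAs of -0.19. Its signals reached 7.17 blank SD at most, and no opposite arm was on the chip.

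rno-miR-1843a-5p was the third that was lower in DEX. Its signal was 18.6, 20.2, 20.9, 17.4 and 17.7 in Control against 13.0, 19.6, 9.95, 8.44 and 13.9 in DEX. The Control arrays lay close together on both slides, and 4 of the 5 DEX arrays were below all of them, whereas DEX 2 was inside the Control range. The means were 19.0 ± 1.52 and 13.0 ± 4.32 (SD, n = 5), a log2 difference of -0.60 ± 0.20 (SE). Within slide 2 the log2 difference was -0.37, against a median over all tested miRNAs of -0.19.

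The 3p arm of miR-1843a had nearly equal means in the groups. rno-miR-1843a-3p gave 71.3, 66.4, 52.5, 54.4 and 64.0 in Control against 66.8, 67.1, 55.0, 46.6 and 74.6 in DEX. The lowest and the highest signal were both in DEX, and the means were 61.7 ± 8.02 and 62.0 ± 11.1 (SD, n = 5). The log2 difference was -0.0029 ± 0.16 (SE; 95% confidence interval -0.35 to 0.35; adjusted p = 0.997 in limma). It was -0.030 within slide 2, against a median over all tested miRNAs of -0.19. The 5p minus the 3p arm went from -1.70 ± 0.235 in Control to -2.30 ± 0.296 in DEX on the log2 scale (SD, n = 5), a change of -0.60 with overlapping ranges of -1.94 to -1.33 and -2.47 to -1.77. As for miR-324, this change restates the choice of the 5p arm and has no test.

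A close relative allowed a check on a nearly identical sequence. rno-miR-1843b is cut from another hairpin, with arms at chr13:74085003-74085025 and chr13:74085040-74085060 on the plus strand, within the span of the ubiquitin ligase gene Cop1.
rno-miR-1843a-5p: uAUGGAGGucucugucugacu
rno-miR-1843b-5p: aUGGAGGUcucugucugacuuag
rno-miR-1843a-3p: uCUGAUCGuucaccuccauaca
rno-miR-1843b-3p: uCUGAUCGuuccccuccauac
The capitals again mark bases 2 to 8. The 5p arms share a run of 20 bases that starts at base 2 of rno-miR-1843a-5p and base 1 of rno-miR-1843b-5p, so their seeds are offset by 1 base. The 3p arms differ by the substitution A12C, counted from the 5′ end of rno-miR-1843a-3p, and by the length of their 3′ ends. Whether the probes of such relatives cross-hybridize was not tested.

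rno-miR-1843b-5p gave 18.8, 19.4, 14.2, 11.5 and 18.8 in Control against 20.7, 12.0, 15.9, 11.7 and 18.1 in DEX. The groups overlapped throughout, with a log2 difference of -0.085 ± 0.21 (SE; adjusted p = 0.930 in limma), beside -0.60 for rno-miR-1843a-5p. Whether the differences of these relatives differ was not tested. The deviations of the 5p relatives from their group means had r = 0.0704 over the 10 arrays, while those of the 3p relatives had r = 0.756. With the 404 other miRNAs detected on every array, the median r was 0.176 for rno-miR-1843a-5p and 0.479 for rno-miR-1843a-3p. rno-miR-1843b-3p had means of 40.9 ± 9.66 and 37.1 ± 3.93 (SD, n = 5) and a log2 difference of -0.11 ± 0.18 (SE; adjusted p = 0.914 in limma).

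Whether the arms of a hairpin varied together from array to array was tested on deviations from the group means, which do not use the contrast that picked the miRNAs. Each animal had its own array, so variation between animals and variation between arrays cannot be told apart. For miR-324 the arms moved together, with Pearson's r = 0.887 (p = 0.000556, adjusted p = 0.00167) and Spearman's rho = 0.818 (p = 0.00792, adjusted p = 0.0238) over 10 arrays, by a two-sided exact permutation test of 14400 permutations within groups, adjusted over 3 hairpins. Control 3 and Control 4 had low and Control 5 and DEX 5 had high signals on both arms. Without the 2 arrays farthest from the median of the 5p arm (Control 3 and Control 4), r was 0.790. With deviations taken from the mean of each slide and group, so that slides were removed, r was 0.886 (exact permutation p = 0.0417).

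For miR-1843a, r was 0.624 (p = 0.125, adjusted p = 0.188) and rho 0.612 (p = 0.104, adjusted p = 0.156) in the same exact permutation test. That relation rested on DEX 3 and DEX 4, which were low on both arms, since r was -0.154 without them. For miR-331, r was 0.194 (p = 0.615, adjusted p = 0.615) and rho 0.176 (p = 0.638, adjusted p = 0.638) by exact permutation, and r was 0.259 without Control 2 and Control 3. With slides removed, r was 0.642 for miR-1843a and -0.00076 for miR-331. The arms of miR-324 thus covaried between arrays, and for the other 2 hairpins the test was not passed. Whether the 3 correlations differ from one another was not tested.

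**Figure D3:**
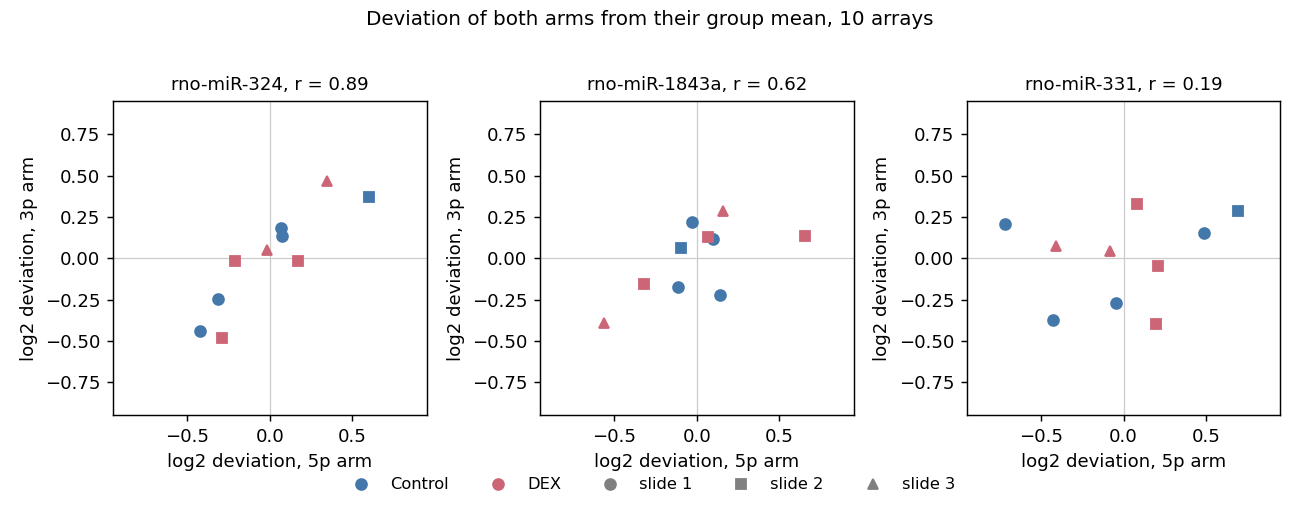
Log2 deviation of the 5p arm (horizontal axis) and of the 3p arm (vertical axis) from their group means for 3 hairpins, with 1 point per array, colours for the groups and shapes for the slides. The points of miR-324 follow a rising line (r = 0.89), those of miR-1843a do so mainly through 2 low DEX arrays (r = 0.62), and those of miR-331 scatter (r = 0.19).

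Positive correlations between arms were frequent on these arrays, mostly weaker than that of miR-324. Among 132 hairpins with both arms tested and no bad spot on any of the 10 arrays, the median r was 0.311 (quartiles 0.0469 and 0.657). Of these, 95.5% had a lower r than miR-324, 73.5% a lower r than miR-1843a and 44.7% a lower r than miR-331. Their arms needed detection on only 5 arrays, with undetected values at the floor, whereas both arms of miR-324 were detected on all 10. rno-miR-324-5p had a median r of 0.561 with the 404 other miRNAs detected on every array, and 42 of them had a higher r with it than its own 3p arm did. All of these values share the array's scaling factor. Without scaling, r between the arms was 0.966 for miR-324, 0.900 for miR-1843a (exact permutation p = 0.00194) and 0.536 for miR-331. With the median over the miRNAs detected on every array as the scale, it was 0.765, 0.519 and 0.070 in that order.

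For the 6 listed miRNAs detected on every array, the miRNA with the most similar deviations was sought among 404 others over 10 arrays. It was not the opposite arm for any of the 5 whose opposite arm was also measured. For rno-miR-324-5p it was rno-miR-30e-3p (r = 0.968) and for rno-miR-324-3p it was rno-miR-339-5p (r = 0.955). For rno-miR-331-3p it was rno-miR-10a-5p (r = 0.977), while 288 of the 404 had a higher r with it than rno-miR-331-5p. For rno-miR-1843a-5p it was rno-miR-196c-3p (r = 0.808), and for rno-miR-1843a-3p it was rno-miR-339-3p (r = 0.923). rno-miR-1298 had a median r of 0.118 with the 404 and was most like rno-miR-301b-3p (r = 0.747). The most similar miRNAs of these 4 picked ones had no adjusted p under 0.05 in limma, and their differences were not compared with those of the picked ones by a test. Among them, rno-miR-30e-3p had a log2 difference of 0.16 ± 0.18 (SE), rno-miR-10a-5p 0.20 ± 0.22 and rno-miR-196c-3p -0.13 ± 0.18, and rno-miR-301b-3p, most like rno-miR-1298, had 0.61 ± 0.27.

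Among the picked miRNAs themselves, rno-miR-324-5p and rno-miR-331-3p deviated together (r = 0.840 over 10 arrays). Their median r with the 404 other miRNAs detected on every array was 0.561 and 0.491. rno-miR-137-5p, the third that was higher in DEX, had r of 0.145 with rno-miR-324-5p and 0.216 with rno-miR-331-3p. The 3 that were lower had r between 0.155 and 0.295 with one another. Blood was represented by 6 miRNAs, all detected on every array, with sums of 812 to 1248 in Control and 637 to 1285 in DEX, and none of the 6 was called by limma. Of the red cell miRNAs, rno-miR-144-3p and rno-miR-451-5p had log2 differences of -0.75 ± 0.36 and -0.59 ± 0.33 (SE), whereas rno-miR-486 had 0.019. The differences of rno-miR-144-3p and rno-miR-451-5p were about as large as those of the picked miRNAs that were lower, with larger SEs. The leukocyte miRNAs of the list were not lower, with 0.13 for rno-miR-142-5p, 0.29 for rno-miR-142-3p and 0.34 for rno-miR-223-3p. The part of blood in the differences of the listed miRNAs was not tested.

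**Figure D4:**
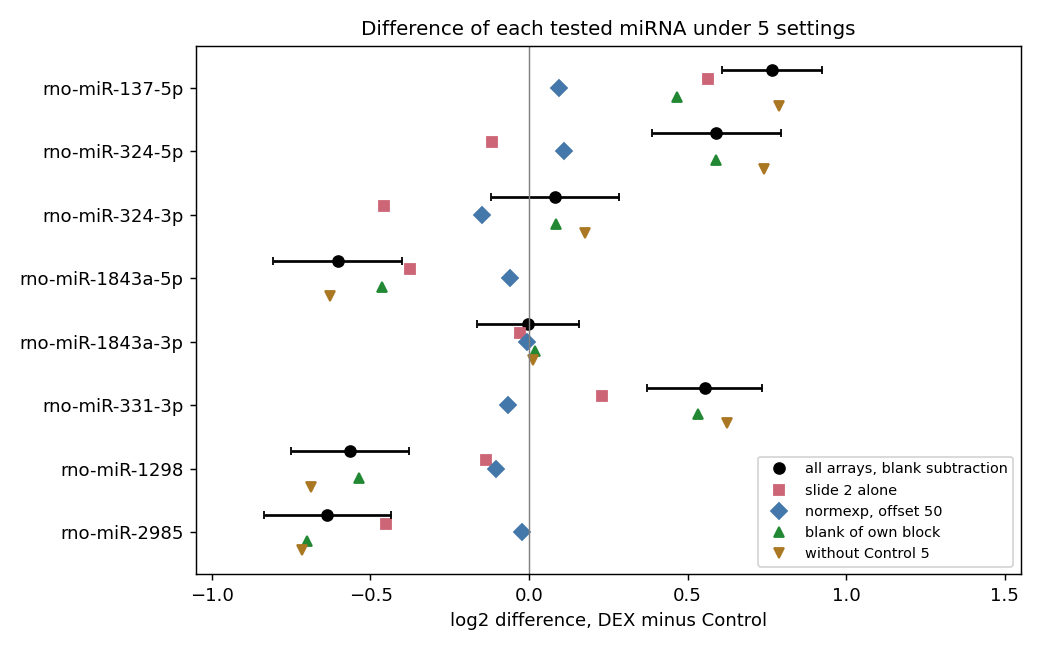
Log2 difference, DEX minus Control (horizontal axis), of the 8 tested miRNAs over all arrays (black, ± SE), within slide 2, with normexp background correction, with the blanks of each spot's own block, and without Control 5. Within slide 2, rno-miR-324-5p moves from 0.59 to -0.12 and rno-miR-1298 from -0.56 to -0.13. With normexp, which adds an offset of 50 intensity units, the differences of all 6 picked miRNAs lie between -0.10 and 0.11.

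The size of the picked differences depended on the subtraction of the blanks. With no background subtraction the log2 differences of the 3 higher miRNAs lay between 0.077 (rno-miR-137-5p) and 0.11 (rno-miR-324-5p), and those of the 3 lower ones were -0.084 for rno-miR-1298, -0.078 for rno-miR-1843a-5p and -0.045 for rno-miR-2985. The directions were kept in all 6 without subtraction, whereas with normexp rno-miR-331-3p turned to -0.065 and the other 5 kept theirs. Normexp added an offset of 50 intensity units to every value, which by itself draws the log2 differences of dim spots towards 0. The part of the offset in the smaller differences was not tested. Without subtraction each value still holds the blank level of its array, between 93.7 and 185 intensity units, which is above the net signal of these spots.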

How the data were processed

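Each deposited scanner file gives, per the file headers, the median intensity of every spot at 635 nm, merged from 3 gain settings, without background removal. The authors' score in the value table of the series lay within 0.51 of the blank-subtracted, scaled intensity for 99.8% of 5038 values, and a value there was taken as detection. All value columns were mapped (0 unused). The labels name an RNeasy kit and the methods an miRNeasy kit. The miRBase release was not given in the sources used here.

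The mean of 1664 blank spots, trimmed by 5% per end, was subtracted, each array was scaled to a median of 25 over its detected miRNAs, undetected miRNAs were set to the array's lowest detected signal, and log2 was taken. The number of arrays limits the precision. Detection on at least 5 arrays left 503 miRNAs, which were fitted by group with limma 3.58.1 in R 4.3.3 (two-sided, Benjamini-Hochberg, threshold 0.05), and the code was tested on simulated data. Arm correlations used exact permutation in Python 3.11.15, and figures matplotlib 3.10.9. The methods' t-test (1.5-fold and p under 0.05) was also run.

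The members and marker lists were chosen with earlier results of these data known. Besides the 9, the rule named miRNAs of the same seed or within 10 kb, and the one most alike in its deviations from group means. Alternatives covered background, scaling, source of values, filter, floor, detection limit, linear model, slide, replicate block and leaving out each array. The own-block blank was added after the data had been seen.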

Additional observations from a re-analysis of the deposited data

Results flagged for a closer look

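In the Control group, rno-miR-137-3p stood at the floor on 4 arrays and at a scaled signal of 18.3 on Control 5, so that the gap from Control 5 to its nearest neighbour was 0.941 of the group's range, above the critical value of 0.71 for 5 samples. The floor narrowed the spread of those 4 arrays and so raised this share. Before the floor their signals were 2.44, -1.95, -3.83 and -1.62. The critical value supposes 5 measured values, so it cannot judge this gap. The same check over 18 groups of 5, for the 9 miRNAs in each group, found 1 such array, and chance gives about 1 in 20. The rno-miR-137-3p value does not enter the tests, since the miRNA was detected on 1 array.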

How the results depend on the processing

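Under all 30 alternatives, the methods' t-test among them and limma in the others, 0 miRNAs passed the adjusted threshold (smallest adjusted p from 0.0608 to 0.998), also with each array left out. At an unadjusted p under 0.05 the count of 15 became 6 with no background subtraction, 9 with normexp, 31 with the median over miRNAs detected on every array, 32 with quantile normalization, 30 with the value table, 30 with array weights, and 24 with slide as a fixed term or as a random block. Leaving out an array gave 16 to 36 (36 without Control 5, 25 without DEX 3, 24 without Control 1). The methods' t-test called 8 of 503 at unadjusted p, 3 of them picked by p.

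Replicate numbers did not pair the samples: the deviations of same-numbered arrays had correlations from -0.080 to 0.105, with 1 of 5 over 0.1, and 1 of the 5 Control arrays correlated best with the DEX array of its number. With the replicate block, 35 miRNAs were at an unadjusted p under 0.05, and the smallest adjusted p was 0.0608.

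With normexp the log2 differences were 0.11 for rno-miR-324-5p, 0.093 for the 5p arm of miR-137, -0.065 for rno-miR-331-3p, -0.10 for rno-miR-1298, -0.061 for rno-miR-1843a-5p, -0.021 for rno-miR-2985 and -0.15 for rno-miR-324-3p, and with no subtraction 0.11, 0.077, 0.085, -0.084, -0.078 and -0.045 for the picked miRNAs in that order. rno-miR-137-5p was 1.02 with a floor of 1 scaled unit and 0.47 with own-block blanks, and it was not tested with a detection limit of 3 SD or a filter of all 10 arrays. With slide as a fixed term, or slide 2 alone, rno-miR-324-5p was -0.12, rno-miR-324-3p -0.46, rno-miR-331-3p 0.23 and rno-miR-1298 -0.13, where the median over all miRNAs was -0.19. Relative to that median they were 0.07, -0.27, 0.42 and 0.05. Without scaling the median was -0.16 and rno-miR-324-3p was -0.12, which is 0.039 relative to the median, the same as with scaling.

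The opposite arms lay near 0 and changed sign easily. rno-miR-324-3p was also -0.00031 with quantile normalization, -0.089 without slide 3, -0.027 without Control 3 and -0.034 without DEX 5. rno-miR-1843a-3p was 0.018 with the median over miRNAs detected on every array, 0.019 with the value table and with own-block blanks, 0.0022 with slide as a random block, 0.032 without slide 3, 0.052 without Control 1, 0.026 without Control 2, 0.013 without Control 5, 0.036 without DEX 3 and 0.095 without DEX 4. When each array was left out, log2 differences ranged from 0.48 to 0.74 for rno-miR-324-5p, 0.67 to 0.84 for the 5p arm of miR-137, -0.034 to 0.20 for rno-miR-324-3p, 0.46 to 0.65 for rno-miR-331-3p, -0.69 to -0.47 for rno-miR-1298, -0.77 to -0.46 for rno-miR-1843a-5p, -0.074 to 0.095 for rno-miR-1843a-3p and -0.72 to -0.52 for rno-miR-2985.

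The correlation of the arms of miR-324 was 0.765 to 0.966 in 15 alternatives (exact permutation p up to 0.0417), and 0.849 to 0.910 when each array was left out. For miR-1843a it was 0.900 without scaling (exact permutation p = 0.00194), -0.15 without the 2 farthest arrays, and 0.341 to 0.751 when each array was left out. For miR-331 it was -0.00076 with slide and group means and -0.063 to 0.498 when each array was left out, the lowest without Control 5. The causes of these changes were not tested.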
